A study of Mus musculus with 17 samples.

Results

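The ADAM family, proteins with a disintegrin and a metalloproteinase domain, was taken as every gene of the deposited table whose symbol is Adam followed by a number and at most 1 letter, which gave 32 of the 23282 listed genes. Of these, 19 are known from testis or sperm and are called sperm-type here (Adam1a, Adam1b, Adam2, Adam3, Adam4, Adam5, Adam6a, Adam6b, Adam18, Adam21, Adam24, Adam25, Adam26a, Adam26b, Adam29, Adam30, Adam32, Adam34 and Adam39). The other 13 are known from many tissues or from somatic cells (Adam7, Adam8, Adam9, Adam10, Adam11, Adam12, Adam15, Adam17, Adam19, Adam22, Adam23, Adam28 and Adam33). RNA was measured by Smart-seq2 in cells of 3 stages, spermatogonia (SPG), spermatocytes at pre-leptotene (PreL) and spermatocytes at leptotene or zygotene (LZ). The cells were sorted by Hoechst and propidium iodide fluorescence from C57BL/6J mice that were wild type (WT) or Nat10-SKO. In Nat10-SKO mice (Nat10 fl/-;Stra8-Cre, labelled Stra8-cre_Nat10_KO) germ cells express Cre from the Stra8 locus and thereby lose exons 4 and 5 of Nat10, while testicular somatic cells keep the gene and the second Nat10 allele is absent from all cells. Each group had 3 libraries, except WT LZ with 2. The age of the sorted mice and the number of mice behind a library were not given in the sources used here, so the p-values measure the spread between libraries, which may be technical in part.

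ADAM proteins are membrane-anchored and carry a prodomain, a metalloproteinase domain, a disintegrin domain and a cysteine-rich region. In many members the metalloproteinase domain is a working enzyme that cuts other membrane proteins near the cell surface, a process called ectodomain shedding. ADAM10 releases Notch receptors and ADAM17 releases tumour necrosis factor in this way. In the testis, a separate set of ADAM proteins is made in spermatocytes and spermatids and is carried on the sperm surface, among them the fertilin subunits ADAM1 and ADAM2 and cyritestin, ADAM3, which sperm need to pass into the oviduct and to bind the egg coat.

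The difference between enzymes and non-enzymes can be read in the coding sequence. The zinc site of an active ADAM has 3 histidines that hold the metal and 1 glutamate that takes part in the cut, in fixed spacing. The 33-base windows that encode this site, or that line up with the site of Adam9 without gaps, are shown for 12 members from the GENCODE coding sequences of GRCm38 (mm10), 5′ to 3′ on the coding strand, with the codons of these 4 residues in capitals where they are present. The first 7 windows are from members that keep the site.
Adam9: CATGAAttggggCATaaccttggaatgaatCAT
Adam10: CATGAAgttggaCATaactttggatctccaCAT
Adam17: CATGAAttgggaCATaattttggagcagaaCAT
Adam28: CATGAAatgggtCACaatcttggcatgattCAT
Adam1b: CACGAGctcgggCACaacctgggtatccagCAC
Adam24: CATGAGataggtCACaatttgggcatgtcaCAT
Adam30: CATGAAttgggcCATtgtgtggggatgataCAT
Adam2: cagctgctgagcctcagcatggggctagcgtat
Adam3: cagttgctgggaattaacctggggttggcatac
Adam5: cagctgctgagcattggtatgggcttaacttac
Adam18: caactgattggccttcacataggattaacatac
Adam32: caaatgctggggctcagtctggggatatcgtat

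The windows of Adam9 (chr8:24990326-24990358), Adam3 (chr8:24707418-24707450), Adam5 (chr8:24806449-24806481), Adam18 (chr8:24647848-24647880) and Adam32 (chr8:24901501-24901533) lie on the minus strand of chromosome 8, and that of Adam24 (chr8:40680518-40680550) lies on the plus strand. The others are those of Adam1b (chr5:121501937-121501969, minus), Adam2 (chr14:66053841-66053873, minus), Adam17 (chr12:21336732-21336764, minus), Adam28 (chr14:68633167-68633199, minus), Adam30 (chr3:98161861-98161893, plus) and Adam10, whose window is split by an intron (chr9:70754296-70761585, plus). The whole site was encoded by 19 of the 32 members, 10 of the 19 sperm-type and 9 of the 13 others. Adam2, Adam3, Adam5, Adam18 and Adam32, which have 0 of the 4 residues in this window, were the 5 sperm-type members with the highest levels in WT LZ. Adam4, Adam7 and Adam29 had 3 of the 4.

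The members also differ in where they lie and how they are built. Adam18, Adam3, Adam5, Adam32 and Adam9 adjoin each other on the minus strand of chromosome 8 (24602246 to 25016927), with 2469, 1240, 11770 and 806 bases between one gene and the next. Of the 19 sperm-type genes, 11 are on chromosome 8, and 12 have at most 2 exons in their longest transcript, as in genes copied from a processed RNA, against 0 of the other 13. Among these short genes are Adam24, Adam25 and Adam39 (40675077 to 40827037) and Adam26b and Adam26a (43519762 to 43576707) on chromosome 8, beside Adam34 with 4 exons. Some share sequence. The paper quantified expression from uniquely mapped reads, so their counts miss reads that map to more than 1 place and are uncertain. Of the 100-base stretches of Adam1b, 30.4% also occur in Adam1a. The same holds for 13.1% of those of Adam6a in Adam6b. For Adam25, Adam26a, Adam26b and Adam39, 14.9% to 17.2% of these stretches occur in other genes. The longest annotated transcript of Adam1a runs through 15 exons and overlaps Mapkapk5 and Tmem116 in full, so its counts and its level are the least certain of the family. Exons of Adam3, Adam8, Adam15, Adam17, Adam19 and Adam34 also overlap other annotated genes, and the Smart-seq2 reads carry no strand.

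Groups were compared with limma on log2(value + 10) after the values of each library were rescaled to a common median gene ratio. Changes are thus relative to the other genes of a library, and fold changes of low genes are understated. A gene was tested where its mean over the libraries compared reached 10 reads, and it was called higher or lower, written as rose or fell, at a Benjamini-Hochberg adjusted p over all genes under 0.05 and a log2 fold change beyond 1.

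The library totals were 9885136 to 13820953 recovered reads in SPG, PreL and WT LZ, and 5812380 to 7609420 in SKO LZ. Nat10 itself, counted over all its exons, was lower in SKO by 0.87 on the log2 scale in SPG (SE 0.24, adjusted p = 0.0326, below the fold threshold), by 1.29 in PreL (SE 0.23, adjusted p = 0.00591) and by 1.47 in LZ (SE 0.29, adjusted p = 0.00469). The sorted cells expressed early meiotic markers in every group. RNA of later germ cell markers was also read, at higher sums in WT than in SKO apart from the late spermatocyte markers in SPG. By staining, the paper counted few or no pachytene and diplotene cells among sorted PreL and LZ cells. The 12 spermatid markers summed to 117 to 346.5 CPM (reads scaled to a common library total) in WT SPG, 615.5 to 1026 in WT PreL and 667 to 1096 in WT LZ, against 4.76 to 15.1 in all 9 SKO libraries. The 11 late spermatocyte markers summed to 4572 and 8264 CPM in WT LZ, against 136 to 165 in SKO LZ. In SPG the late spermatocyte sums of the genotypes overlapped. Single markers differed there: 5 of the 11 were called lower in SKO SPG and 0 higher, with a median log2 difference of -1.65. Of all genes tested in SPG, 2.06% were called lower and 3.95% higher. From WT PreL to WT LZ the spermatid sums overlapped. The late spermatocyte sum moves with the differences of the sperm-type members between the genotypes in PreL and LZ and from PreL to LZ in WT, the spermatid sum moves with those between the genotypes, and their part was not tested. In sorted bulk RNA, fewer cells of a type and less RNA per cell cannot be told apart.

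Levels were set side by side as reads per kilobase of the longest annotated transcript at a common library total (RPKM). In WT LZ the order was Adam5 (129 and 254 RPKM in replicates 2 and 3), Adam2 (97.2 and 162.5), Adam32 (73.0 and 160), Adam3 (70.6 and 148), Adam18 (23.0 and 43.3), Adam10 (26.8 and 22.3), Adam1b (8.84 and 24.1), Adam30 (6.21 and 18.3), Adam17 (12.7 and 7.99) and Adam9 (7.21 and 5.94). The ranges of the first 4 overlapped, as did those of Adam18, Adam10 and Adam1b, so the order within these sets is not resolved by 2 libraries. The first 5 made up 93.2% and 93.3% of the summed level of the sperm-type members in the 2 libraries. With the median instead of the longest transcript length, Adam3 came first and Adam32 second, so the order of the leading members also depends on the annotated length. Adam24, at 1.98 and 2.41 RPKM, was the highest of the remaining sperm-type members.

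**Figure D1:**
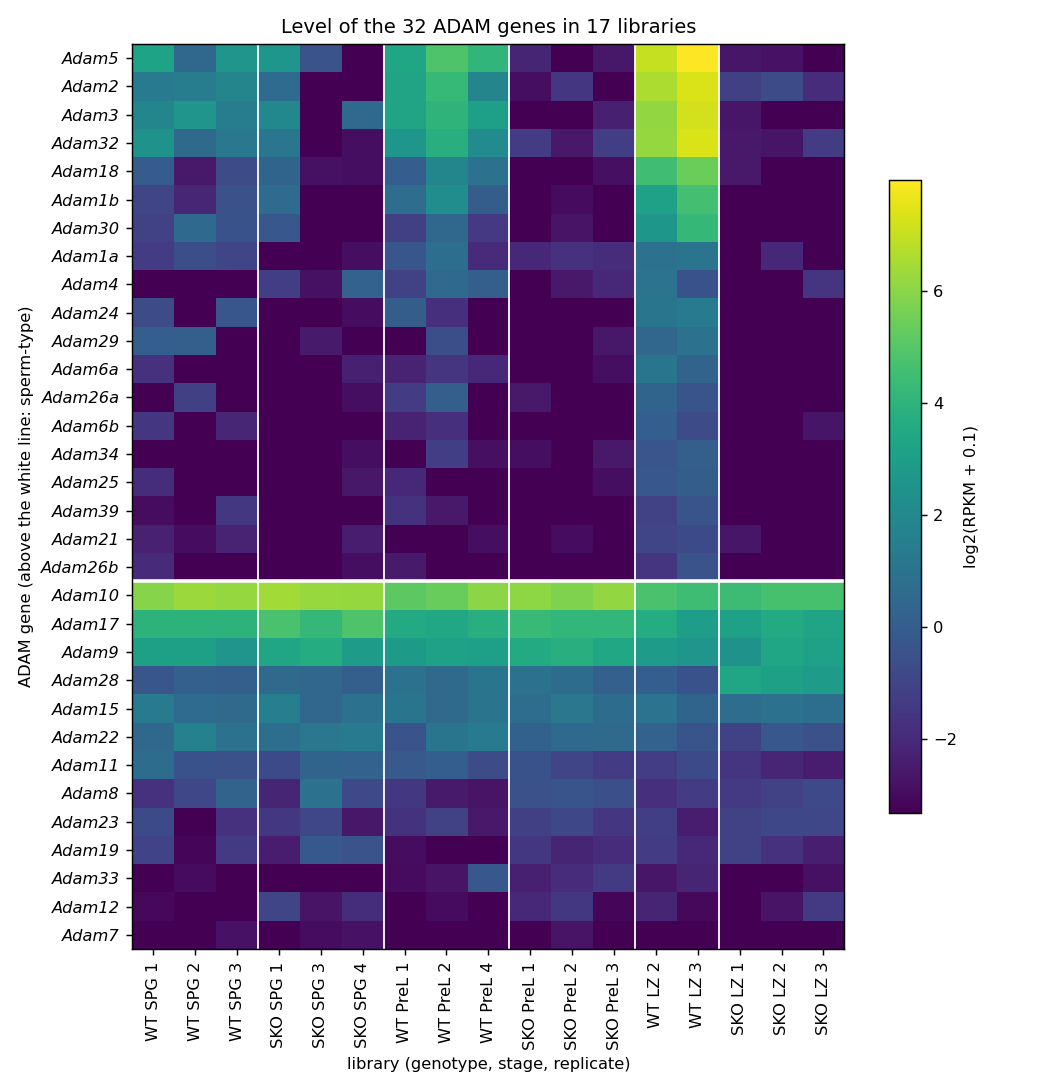
Level of each of the 32 ADAM genes (rows) in each of the 17 libraries (columns), as log2(RPKM + 0.1) by colour. The sperm-type members lie above the white line. Of these, Adam5, Adam2, Adam32, Adam3, Adam18, Adam1b and Adam30 are brightest in the WT LZ columns, where the others reach at most 2.41 RPKM. All sperm-type members are dark in SKO PreL and SKO LZ, while Adam10, Adam17 and Adam9 are seen in every column.

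Across the WT stages, the summed level of the sperm-type members was lowest in SPG and highest in LZ. It was 19.1 ± 5.22 RPKM in WT SPG (SD, n = 3), 57.4 ± 31.2 in WT PreL (SD, n = 3) and 622 ± 284 in WT LZ (SD, n = 2). From SPG to PreL, Adam3 rose by a log2 fold change of 1.49 (SE 0.35, adjusted p = 0.0305) and was the only member called of 20 tested, against 2.54% of all genes called higher and 1.21% lower; leaving out WT SPG replicate 1 or 3, or WT PreL replicate 2, ended this call. Adam1b (1.98, adjusted p = 0.0621), Adam5 (1.97, adjusted p = 0.0559), Adam2 (1.56, adjusted p = 0.0735), Adam18 (1.69, adjusted p = 0.101) and Adam4 (2.03, adjusted p = 0.0557) did not pass, although on the rescaled values the lowest PreL library lay above the highest SPG library for all of them, as in 15.6% of all genes tested. The groups overlapped for Adam32 (1.41, adjusted p = 0.0914). Adam4 had 0 reads in the 3 WT SPG libraries and 10, 36 and 26 in WT PreL, at least 28.1-fold more when set against 3 reads over the group.

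From PreL to LZ in WT, 11 of the 16 sperm-type members tested rose and none was called lower, where 18.8% of all genes tested were called higher. The 11 were Adam30 (log2 fold change 3.97, SE 0.72, adjusted p = 0.00441), Adam18 (3.81, SE 0.57, adjusted p = 0.00276), Adam32 (3.73, SE 0.51, adjusted p = 0.00251), Adam2 (3.68, SE 0.59, adjusted p = 0.00307), Adam5 (3.23), Adam3 (3.05), Adam1b (2.71), Adam29 (2.59), Adam24 (2.56), Adam6a (2.28) and Adam25 (2.27). In 13 of the 16 both LZ libraries lay above all 3 PreL libraries, as in 34.2% of all genes tested. The median log2 fold change of the 16 was 2.58, against 0.13 over all genes tested; some of these members passed the filter on low values only through WT LZ, so the counts and the median describe them and do not test the family. On the recovered reads edgeR and DESeq2 each called 8 higher, and Adam24, Adam25 and Adam29 lost their calls in both tools and with a pseudocount of 1. The late spermatocyte markers rose with them, 10 of 11 being called higher, and their summed level went from between 525 and 1496 CPM in WT PreL to 4572 and 8264. Without WT LZ replicate 3 the members called higher were Adam3, Adam5, Adam18 and Adam32 (4), and without replicate 2 they were 7. Replicate 3 held 1.67 to 2.95 times the level of replicate 2 for Adam2, Adam3, Adam5, Adam18, Adam32, Adam1b and Adam30, and it also held the higher summed level of late spermatocyte markers.

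The question of the genotype comparison is what the loss of Nat10 does to the RNA of each stage. In SPG, the fertilin beta gene Adam2 was the only member called of the 19 tested. Its levels were 2.37, 2.71 and 3.49 RPKM in WT SPG and 1.45, 0 and 0 in SKO SPG, so that the groups did not overlap. It fell by 2.53 on the log2 scale (SE 0.66, adjusted p = 0.0257), where 2.06% of all genes tested were called lower and 3.95% higher. This call did not hold in edgeR (adjusted p = 0.272) or DESeq2 (adjusted p = 0.558) on the recovered reads, nor when any 1 library other than SKO SPG replicate 1 was left out (adjusted p = 0.0612 to 0.115). That replicate stood apart: its sperm-type members summed to 508 reads, against 22 and 93 in the other SKO SPG libraries and 486 to 881 in WT SPG. In it Adam5 was at 6.07 RPKM, Adam3 at 3.78, Adam32 at 2.08 and Adam1b at 1.44. Its summed late spermatocyte markers were also the highest of the 3 SKO SPG libraries, 303 CPM, with 147 and 162 in the others, while its spermatid markers were at 6.01 CPM. Without this replicate, Adam2, Adam3, Adam5 and Adam32 were called lower.

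The other sperm-type members tested in SPG did not pass. Adam32 had a log2 difference of -2.18 (adjusted p = 0.0752), Adam5 of -1.96 (adjusted p = 0.19), Adam3 of -1.75 (adjusted p = 0.157) and Adam1a of -1.75 (adjusted p = 0.0566). Adam1a had 19, 31 and 24 reads in WT SPG and 0, 0 and 2 in SKO SPG. Adam4 went the other way, with 0 reads in WT SPG and 9, 1 and 32 in SKO SPG, at least 15.6-fold more in SKO over the group, and was too low to be tested.

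In PreL, 8 of the 9 sperm-type members tested fell and none rose, where 5.83% of all genes tested were called lower. All 8 had their highest SKO library below their lowest WT library, as in 20% of all genes tested. As these members passed the filter on low values through their WT libraries, the counts describe them and do not test the family. Adam5 was at 10.1, 29.1 and 17.1 RPKM in WT PreL and at 0.128, 0 and 0.064 in SKO PreL, and fell by 6.19 on the log2 scale (SE 0.44, adjusted p = 8.15e-05). Adam3 was at 9.77, 16.5 and 8.16 RPKM in WT PreL and at 0, 0 and 0.097 in SKO PreL, 370-fold lower over the pooled reads with a 95% counting interval of 126 to 1798. Adam2 was at 9.62, 19.2 and 3.44 RPKM in WT PreL and at 0.035, 0.244 and 0 in SKO PreL, and fell by 5.05 on the log2 scale (SE 0.59, adjusted p = 0.000786). In each of these genes all 3 SKO libraries were near 0 and below every WT library.

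Adam32, whose protein is found on sperm, was at 6.13, 13.6 and 4.34 RPKM in WT PreL and at 0.291, 0.072 and 0.326 in SKO PreL, and fell by 4.15 (SE 0.49, adjusted p = 0.00077). The remaining 4 were the fertilin alpha gene Adam1b (33 to 161 reads in WT and 0 to 1 in SKO, adjusted p = 0.00319), Adam18 (24 to 90 against 0 to 1, adjusted p = 0.00457), Adam4 (10 to 36 against 0 to 4, adjusted p = 0.038) and Adam30 (10 to 47 against 0 to 2, adjusted p = 0.0396). The last 2 lost their calls when single libraries were left out: Adam4 without WT PreL replicate 2 (where it was too low to be tested) or 4 or SKO PreL replicate 1 or 2, and Adam30 without WT PreL replicate 1, without replicate 2 (likewise untested) or without any of the 3 SKO PreL libraries. WT PreL replicate 2 held the highest level of all 8 among the WT PreL libraries, and the highest sum of late spermatocyte markers (1496 CPM, with 757 and 525 in the others). Adam1a, at 37, 80 and 8 reads in WT PreL and 8, 11 and 9 in SKO PreL, was the 1 sperm-type member tested that did not pass (log2 difference -1.40, adjusted p = 0.156).

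**Figure D2:**
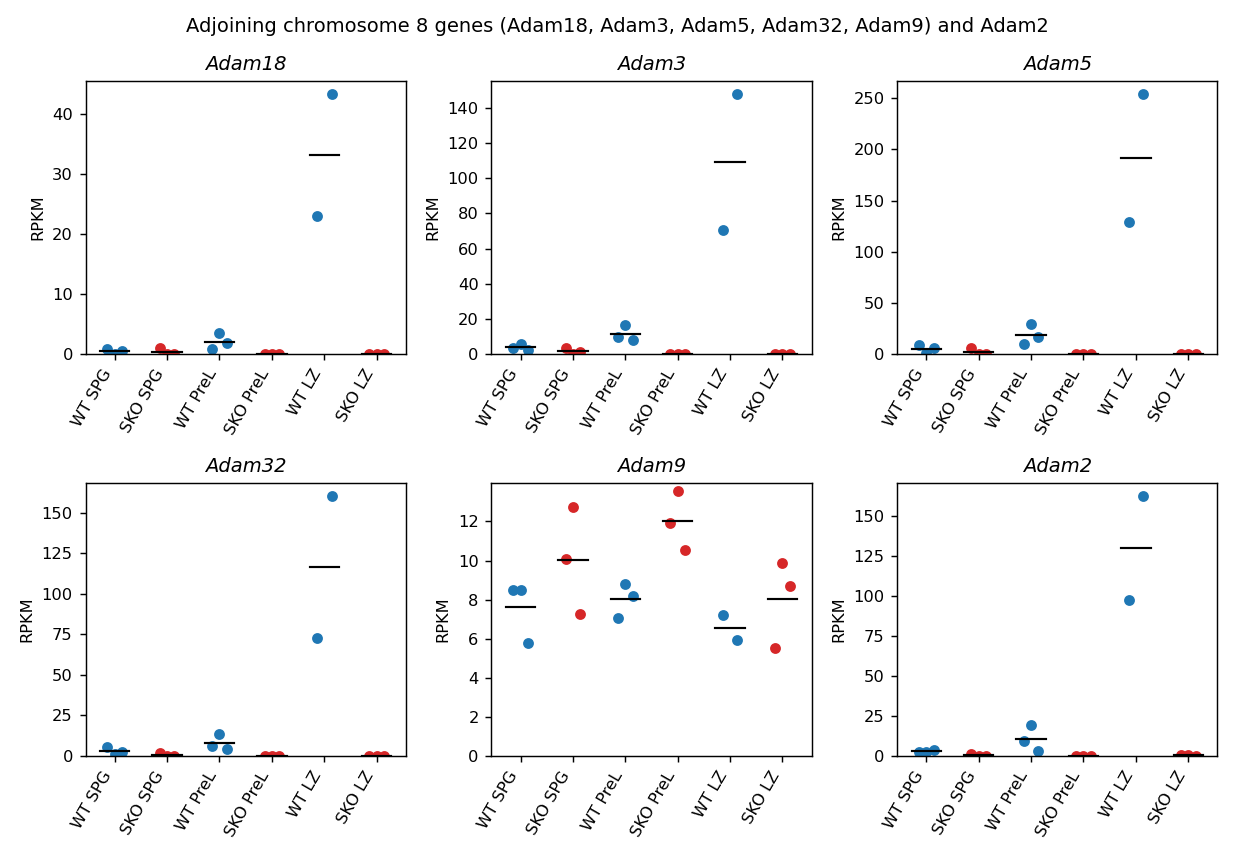
RPKM per library (points, WT blue and SKO red) and group mean (black line) of the 5 adjoining chromosome 8 genes Adam18, Adam3, Adam5, Adam32 and Adam9, and of Adam2. The first 4 and Adam2 peak in WT LZ and are near 0 in SKO PreL and SKO LZ, while Adam9 stays between 5.53 and 13.6 RPKM in all libraries.

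The genotypes were farthest apart in LZ. The 19 sperm-type members together had 15533 and 30160 reads in the WT LZ libraries, in which all 19 were detected, and 10, 17 and 13 reads in the SKO LZ libraries, in which 6, 4 and 4 were detected. For all 19, both WT LZ libraries had a higher value than all 3 SKO LZ libraries, where 39.8% of all genes tested did not overlap in this direction. The 16 that were abundant enough to be tested all fell, against 25.8% of all genes tested; since these 16 passed the filter through their WT values, this count describes them and does not test the family. Those with the most WT reads were Adam5 (4959 and 9683 reads in WT, 1, 1 and 0 in SKO), Adam2 (3426 and 5667 in WT, 5, 10 and 3 in SKO), Adam3 (2678 and 5540 in WT, 1, 0 and 0 in SKO) and Adam32 (2471 and 5370 in WT, 1, 1 and 5 in SKO).

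On the rescaled values, Adam2 fell by 7.997 on the log2 scale (SE 0.49, adjusted p = 5.17e-05) and Adam32 by 8.84 (SE 0.64, adjusted p = 5.77e-05). For members with 1 to 3 reads over the SKO group the fold was taken from the pooled reads with its 95% counting interval: Adam5 was 4169-fold lower (1154 to 34427), Adam3 4680-fold lower (840 to 184861), Adam18 1223-fold lower (219 to 48312) and Adam6b 29.0-fold lower (4.98 to 1169). These intervals are wide because so few reads were seen in SKO, and they cover counting error only. Of the 19, 10 had no read in any SKO LZ library, so only bounds against 3 reads over the group can be given: at least 286-fold lower for Adam1b, 224-fold for Adam30, 33.0-fold for Adam24, 21.3-fold for Adam29, 21.1-fold for Adam6a, 11.8-fold for Adam26a, 11.4-fold for Adam25, 11.2-fold for Adam34, 7.02-fold for Adam39 and 5.69-fold for Adam26b. Adam24 encodes testase 1 and Adam25, Adam26a and Adam34 encode other testases, proteases of testis and sperm.

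Of the rest, Adam1a had 115 and 129 reads in WT LZ and 0, 5 and 0 in SKO LZ, Adam4 had 66 and 21 in WT and 0, 0 and 4 in SKO, and Adam21, untested, had 17 and 19 in WT and 1, 0 and 0 in SKO. Both Adam1a and Adam4 lost their calls without WT LZ replicate 3 (adjusted p = 0.0646 and 0.0878). The median log2 fold change of the 16 tested was -4.80, or -4.86 with the 8 at 0 set to their bound, against -0.13 over all genes tested. Leaving out either WT LZ library left 10 members called, as several others then fell under the filter of a mean of 10 reads.

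**Figure D3:**
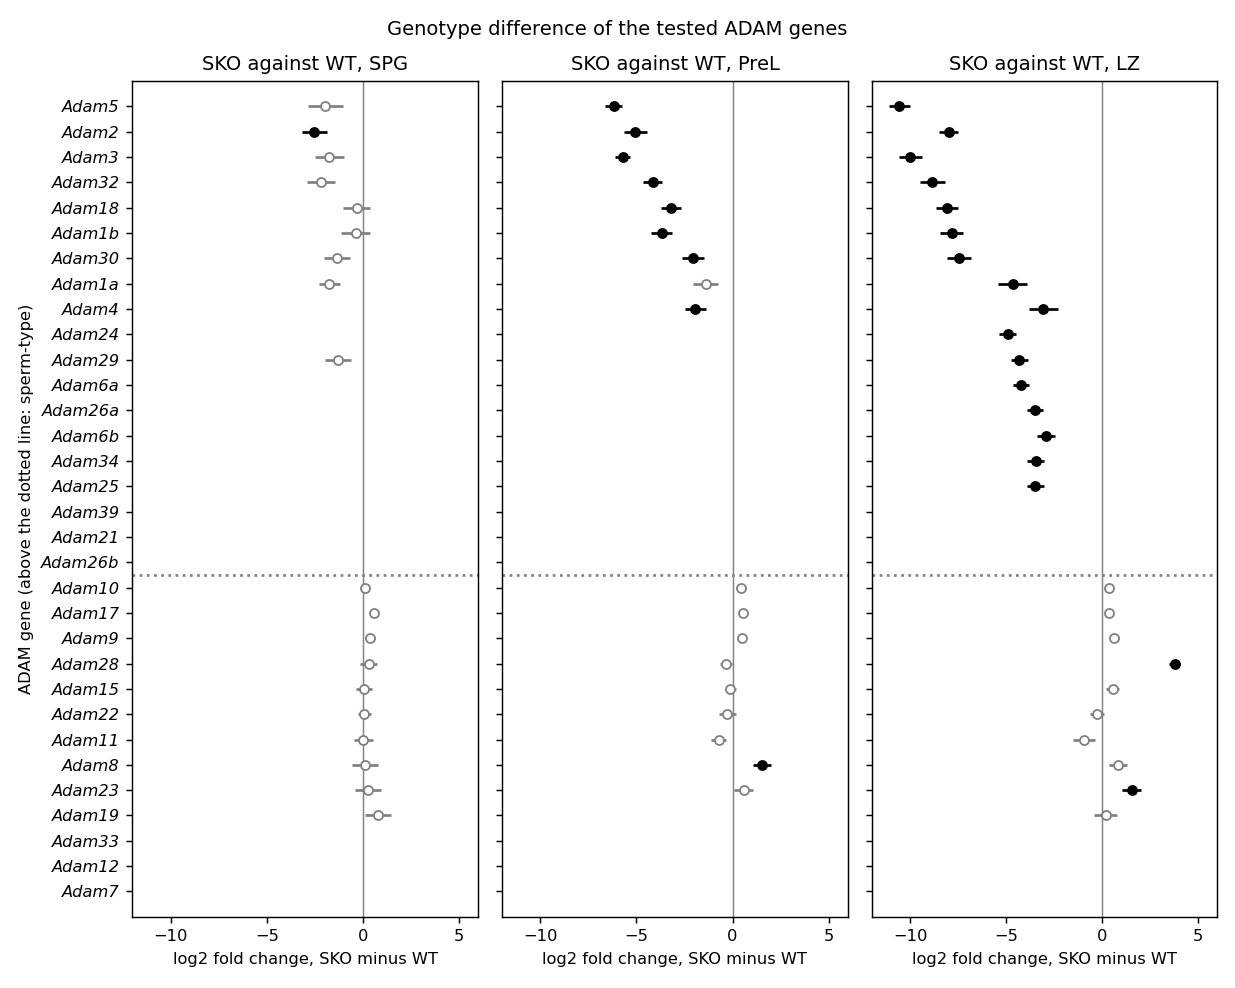
Log2 fold change of SKO against WT in each stage for every ADAM gene tested, with its standard error; filled points passed the test (adjusted p under 0.05 and a log2 fold change beyond 1 in either direction), open points did not, and genes without a point were too low to be tested. All 16 sperm-type members tested in LZ lie between -10.57 and -2.91, and 8 of the 10 other members tested are open.

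Within the chromosome 8 group, Adam9 differed from its 4 neighbours. Its gene ends 806 bases from Adam32, and it encodes a widely expressed shedding enzyme. Adam9 was at 7.21 and 5.94 RPKM in WT LZ and at 5.53, 9.88 and 8.71 in SKO LZ, while Adam32 went from 73.0 and 160 to at most 0.295 RPKM. Its log2 difference between the genotypes was 0.36 in SPG (adjusted p = 0.408), 0.51 in PreL (adjusted p = 0.0622) and 0.63 in LZ (adjusted p = 0.0581), none of which passed. On the ERCC-calibrated values without rescaling, the PreL difference was 1.22 (adjusted p = 0.00248), past both thresholds. On the rescaled values all 3 SKO libraries lay above both WT libraries in LZ, while on the RPKM scale the groups overlapped.

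None of the 13 widely expressed or somatic members was called lower in SKO in any stage, with 10 tested in SPG, 9 in PreL and 10 in LZ, where 2.06%, 5.83% and 25.8% of all genes tested were called lower. In LZ, 7 of the 10 tested had all SKO values above both WT values on the rescaled scale, where 30.3% of all genes tested did, and on the RPKM scale this held for 2 of them, Adam23 and Adam28. Summed over the 13, the level was 101 ± 8.46 RPKM in WT SPG, 121 ± 8.60 in SKO SPG, 73.4 ± 17.7 in WT PreL, 102 ± 5.78 in SKO PreL (SD, n = 3 each), 45.9 ± 8.58 in WT LZ (SD, n = 2) and 54.9 ± 5.14 in SKO LZ (SD, n = 3). Adam10, the Notch sheddase and the leading one, was at 61.0, 78.5 and 72.7 RPKM in WT SPG and at 86.5, 74.8 and 73.3 in SKO SPG. It was at 35.5, 40.7 and 63.9 RPKM in WT PreL and at 66.9, 56.3 and 71.1 in SKO PreL. In LZ it was at 26.8 and 22.3 RPKM in WT and at 21.7, 25.7 and 25.8 in SKO. On the RPKM scale Adam10 was thus highest in SPG and lowest in LZ in both genotypes, while on the ERCC-calibrated values without rescaling its log2 difference in SKO was 0.77 from SPG to PreL (adjusted p = 0.00109) and -0.14 from PreL to LZ (adjusted p = 0.381). Its genotype difference did not pass in any stage on the rescaled values (adjusted p = 0.595, 0.228 and 0.0718), while without rescaling it was 1.17 in PreL (adjusted p = 0.00236), past both thresholds.

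From PreL to LZ in WT, Adam10 was the only member that fell, by 1.04 on the log2 scale (SE 0.29, adjusted p = 0.022), where 7.80% of all genes tested were called lower. In SKO its difference was -0.99 (SE 0.16, adjusted p = 0.00171), short of the fold threshold. These directions hold relative to the other genes of each library: on the ERCC-calibrated values without rescaling, which put the median gene 1.86 higher in WT LZ than in WT PreL, the WT log2 difference of Adam10 was 0.79 (adjusted p = 0.0308), that of Adam17 1.41, that of Adam9 1.37 and that of Adam15 1.32. Without WT PreL replicate 4 or either WT LZ library, Adam10 was not called.

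Adam17, which encodes the tumour necrosis factor converting enzyme, was at 15.9, 15.9 and 15.7 RPKM in WT SPG and at 26.8, 18.3 and 28.9 in SKO SPG. It was at 12.01, 10.6 and 13.8 RPKM in WT PreL and at 20.0, 18.0 and 17.7 in SKO PreL. All 3 SKO values lay above all 3 WT values in both stages, and the log2 differences of 0.59 (SE 0.17, adjusted p = 0.0414) and 0.55 (SE 0.16, adjusted p = 0.0391) passed the adjusted p but not the fold threshold. In LZ it was at 12.7 and 7.99 RPKM in WT and at 8.85, 11.9 and 9.69 in SKO, a log2 difference of 0.37 (adjusted p = 0.114). On the ERCC-calibrated values without rescaling the SPG difference was 0.32 (adjusted p = 0.391) and the PreL difference 1.27 (adjusted p = 0.000611).

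**Figure D4:**
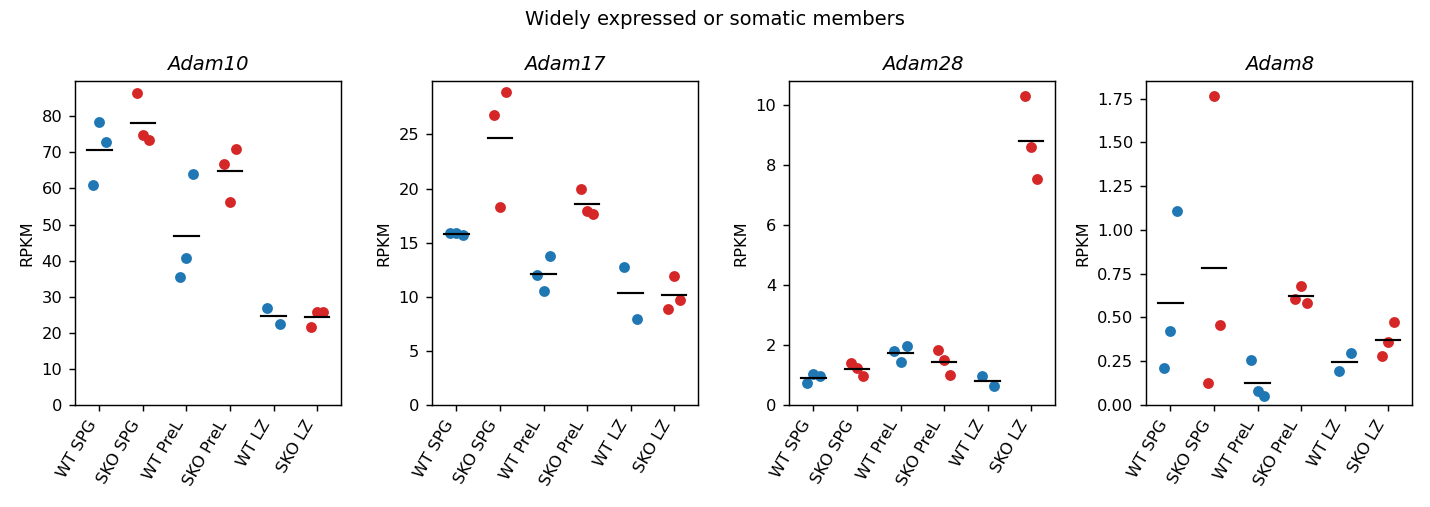
RPKM per library (points, WT blue and SKO red) and group mean (black line) of Adam10, Adam17, Adam28 and Adam8. Adam28 lies between 7.54 and 10.3 RPKM in the 3 SKO LZ libraries and at 1.98 or less in the 14 others.

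Adam28 had the largest rise among the called genotype differences of the family. It encodes an ADAM known from lymphocytes and from the epididymis, and it keeps the full zinc site shown above. It had 223, 243 and 194 reads in the SKO LZ libraries and 49 and 32 in WT LZ, although the SKO LZ libraries were the shallower ones. As a level this was 10.3, 8.60 and 7.54 RPKM against 0.955 and 0.631, and the groups did not overlap. Its log2 fold change was 3.78 (SE 0.29, adjusted p = 7.14e-05), where 13.4% of all genes tested were called higher. It rose from SKO PreL to SKO LZ by 2.98 (SE 0.24, adjusted p = 5.95e-05; 10.6% of all genes tested were called higher), and it was the only one of the 10 members tested there that was called, where 6.93% of all genes tested were called lower. In WT its log2 difference from PreL to LZ was -1.19 (adjusted p = 0.0726), and 0.48 (adjusted p = 0.358) on the ERCC-calibrated values without rescaling. Its calls held in every alternative scaling, filter and tool tried and without any single library. The genotype difference of Adam28 did not pass in SPG (0.32, adjusted p = 0.714) or PreL (-0.33, adjusted p = 0.505).

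Markers of other cell types were set beside Adam28. In LZ the 8 macrophage markers summed to 9.12 to 32.2 CPM in SKO and to 3.11 and 5.34 in WT, and the 7 Leydig markers to 79.1 to 230 in SKO and to 20.9 and 57.3 in WT, while the 7 Sertoli markers in the table summed to 409 to 569 in SKO and to 253 and 1259 in WT. In SKO PreL, the macrophage markers summed to 19.6 to 71.4, the Leydig markers to 40.4 to 459 and the Sertoli markers to 58.6 to 886 CPM, and Adam28 was at 1.01 to 1.82 RPKM. Of the macrophage and Leydig markers, none was at 0 throughout SKO LZ; of the Sertoli markers Amh was.

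The other members of somatic or leukocyte use were low. Adam8, known from leukocytes, had 25, 28 and 24 reads in SKO PreL and 10, 3 and 2 in WT PreL and rose by 1.55 (SE 0.46, adjusted p = 0.0468; 5.32% of all genes tested were called higher). This call was lost in edgeR and DESeq2 and without any library except WT PreL replicate 1. The macrophage marker sum was 55.8, 71.4 and 19.6 CPM in SKO PreL and 15.9, 23.6 and 23.4 in WT PreL, and its part in the rise was not tested. Adam23, whose protein has none of the 4 zinc-site residues, had 14, 22 and 19 reads in SKO LZ and 29 and 7 in the deeper WT LZ libraries, with a log2 fold change of 1.53 (SE 0.50, adjusted p = 0.0371) that was lost without WT LZ replicate 3 or any SKO LZ library and in edgeR and DESeq2.

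Adam12 and Adam19, the meltrins alpha and beta of muscle and connective tissue, were low. Adam12 had 35, 4 and 16 reads in SKO SPG and 2, 0 and 0 in WT SPG, 30.6-fold more over the pooled reads with a 95% counting interval of 8.08 to 259. In SKO SPG the 6 peritubular myoid markers summed to 35.3 to 65.4 CPM, against 2.24 to 11.4 in WT SPG. They did not move as one. Acta2 had 462, 464 and 302 reads in SKO SPG and 1, 0 and 2 in WT SPG, while Actg2 had 16, 1 and 0 against 49, 17 and 84. Of the 4 tested, 2 were called higher and 0 lower, where 3.95% and 2.06% of all genes tested were. The part of these cells in the Adam12 difference was not tested. Adam19 had 18, 9 and 12 reads in SKO PreL and 2, 0 and 0 in WT PreL, 17.6-fold more with an interval of 4.57 to 151, and was too low to be tested there. In SPG (log2 difference 0.80, adjusted p = 0.508) and in LZ (0.18, adjusted p = 0.816) its groups overlapped and it did not pass. Of the members without a called genotype difference in any stage, Adam15 ranged from 1.14 to 2.88 RPKM, Adam22, the receptor of the secreted LGI proteins, from 0.354 to 3.02, and Adam11 from 0.085 to 1.52. Adam33 reached 28 reads in 1 library, WT PreL replicate 4, and 11 or fewer in the others, and Adam7, an epididymal member, had at most 2 reads in any library.

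Promoter sequence was set beside these levels as a description. RefSeq windows of 250 bases before to 50 after the start, on GRCm38, were at hand for 16 members. They are shown for Adam10 (chr9:70678732-70679031, plus strand) and Adam1b (chr5:121503386-121503685, minus strand), 1 from each set, with every CG in capitals.
Adam10: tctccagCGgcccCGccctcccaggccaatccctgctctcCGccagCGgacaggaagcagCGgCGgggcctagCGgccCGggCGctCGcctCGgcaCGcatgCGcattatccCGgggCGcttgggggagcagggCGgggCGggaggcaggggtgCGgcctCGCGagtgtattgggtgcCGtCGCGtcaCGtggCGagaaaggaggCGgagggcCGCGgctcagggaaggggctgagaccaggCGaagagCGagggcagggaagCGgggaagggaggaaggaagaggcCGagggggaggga
Adam1b: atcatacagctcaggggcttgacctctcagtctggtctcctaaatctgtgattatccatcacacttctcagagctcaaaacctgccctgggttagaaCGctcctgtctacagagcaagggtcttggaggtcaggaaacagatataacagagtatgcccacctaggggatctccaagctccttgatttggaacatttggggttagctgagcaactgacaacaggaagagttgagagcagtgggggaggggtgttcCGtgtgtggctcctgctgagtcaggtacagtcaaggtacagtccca

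The window of Adam10 held 32 CG pairs and that of Adam17 30, against a median of 7 over all 32851 promoter windows. Adam23 (31), Adam15 (25) and Adam22 (19) were also high, while Adam8 held 6 and the 3 windows of Adam19 held 5, 11 and 5. The 9 sperm-type members with a window held 0 to 4: Adam1a 4, Adam1b 2, Adam25, Adam29 and Adam6a 1 each, and Adam26b, Adam34, Adam21 and Adam6b 0. No window was at hand for Adam2, Adam3, Adam5, Adam18 or Adam32, the sperm-type members with the highest levels in WT LZ, nor for Adam9 or Adam28. The CG content of their promoters is thus not described here. On either strand, TATAAA was found in the windows of Adam29, Adam6a and Adam6b and in 13.6% of all windows, CNGTTG, the core of the MYB site, in 7 of the 18 windows of members and in 35% of all, and TGACGT, part of the cyclic AMP response element, in 0 of the 18 and in 7.51% of all. These are matches of letters and not tested sites.

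The proteins that fold and carry the sperm ADAMs were followed as a list of 13 genes. In LZ, 11 of the 13 fell in SKO and 0 rose, where 25.8% of all genes tested were called lower, with a median log2 fold change of -3.96 against -0.13 over all genes tested. Some of these genes passed the filter on low values only through their WT libraries, in LZ and in PreL. The counts and the median thus describe them and do not test the list. Cmtm2a and Cmtm2b, which sperm need to keep ADAM3, had 5232 to 11876 and 3828 to 8095 reads in WT LZ and at most 2 and 1 in SKO LZ. Prss37, a protease-like protein needed for ADAM3 on sperm, had 91 and 356 reads in WT LZ and 0 in SKO LZ. In PreL 5 of 11 tested fell (5.83% of all genes), again with Cmtm2a, Cmtm2b and Prss37 foremost, and in SPG 1 of 12 (2.06% of all genes), 4930479M11Rik, the older symbol of Pmis2. From PreL to LZ in WT 7 of the 13 rose (18.8% of all genes), led by Cmtm2a (log2 fold change 3.68), Cmtm2b (3.61) and Pcsk4 (3.25), and in SKO 2 of 7 tested fell (6.93% of all genes), Ly6k (-1.29) and Calr3 (-1.15).

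The regulators of ADAM10 and ADAM17, a list of 15 genes of tetraspanins, iRhom proteins, convertases and tissue inhibitors, moved less evenly. In LZ, 3 of 13 tested rose and 1 fell in SKO, where 13.4% of all genes tested were called higher and 25.8% lower. Tspan15, a tetraspanin that escorts ADAM10 to the surface, rose by 3.04 (SE 0.30, adjusted p = 0.000179), with 1145 to 1184 reads in SKO LZ and 314 to 437 in WT LZ, and Tspan14, of the same kind, by 1.47 (adjusted p = 0.00236). Pcsk7, a convertase that removes prodomains, fell by 1.33 (adjusted p = 0.00687). In SPG, Timp2, a tissue inhibitor of metalloproteinases, rose by 2.199 (adjusted p = 0.0146) and was the 1 called of 12 tested. Of all genes tested there, 3.95% were called higher and 2.06% lower. In PreL limma called 0 of 12, with 4 at an unadjusted p under 0.05, while edgeR called 1 and DESeq2 3 higher. Over all 13132 genes tested, limma called 699, edgeR 602 and DESeq2 904 higher. From PreL to LZ in WT, 3 of 12 regulators tested rose and 1 fell, where 18.8% and 7.80% of all genes tested did. Tspan5 (log2 fold change 3.18), Tspan17 (2.13) and Timp2 (2.11) rose, and Tspan15 fell by 1.95 (adjusted p = 0.00329). In SKO, 1 of 13 tested rose and 1 fell, where 10.6% and 6.93% of all genes tested did. There Tspan15 rose by 1.89 (adjusted p = 0.000143) and Pcsk7 fell.

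Of the 20 substrates of these enzymes, 4 of 13 tested rose and 2 fell in SKO LZ, beside the same 13.4% and 25.8% of all genes tested. Among them were Kitl, the KIT ligand (up by 2.19, adjusted p = 0.00186), Hbegf, a ligand of the EGF receptor (up by 1.25, adjusted p = 0.042), and Tgfa, another such ligand (down by 2.52, adjusted p = 0.0185). In SPG limma, edgeR and DESeq2 each called 0 of 13, with 5, 2 and 4 at an unadjusted p under 0.05. Of all genes tested there, limma called 3.95% higher and 2.06% lower. In PreL limma called 0 of 11, with 2 at an unadjusted p under 0.05, and edgeR and DESeq2 each called 1 higher. Over all 13132 genes tested, limma called 699, edgeR 602 and DESeq2 904 higher. From PreL to LZ in SKO, 2 of 12 substrates tested fell and 2 rose, where 6.93% and 10.6% of all genes tested did. Notch2 and Jag1, receptor and ligand of the Notch pathway, fell by 1.66 each (adjusted p = 9.89e-05 and 0.000545), and Hbegf rose by 1.38 (adjusted p = 0.0145). In WT, 1 of 12 tested fell and 1 rose, where 7.80% and 18.8% of all genes tested did. Jag1 fell by 1.38 (adjusted p = 0.0491) and Tgfa rose by 2.74 (adjusted p = 0.0229). Of the 25 secreted ADAMTS relatives and ADAMDEC1, few were abundant enough to be tested. Adamts5 rose in SKO SPG (log2 fold change 4.14, adjusted p = 0.0002015) and in SKO LZ (3.89, adjusted p = 0.00031). Adamts1 rose in SKO PreL (2.54, adjusted p = 0.0438) and in SKO LZ (4.15, adjusted p = 0.000345), and Adamts6 in SKO PreL (2.35, adjusted p = 0.0151). These were 1 of 6 tested in SPG, 2 of 10 in PreL and 2 of 9 in LZ, and 0 fell. Of all genes tested, 3.95%, 5.32% and 13.4% were called higher. From SPG to PreL in SKO, Adamts5 fell by 3.08 (adjusted p = 0.0295) and Adamts6 rose by 2.44 (adjusted p = 0.0378), where 0.955% and 1.63% of all genes tested did. Adamts5 and Adamts1 are enzymes of connective tissue matrix. In SPG the Leydig markers summed to 62.5 to 225 CPM in SKO and to 5.61 to 15.5 in WT, and the macrophage markers to 67.7 to 142.8 in SKO and to 7.68 to 18.5 in WT. In PreL the Leydig markers summed to 40.4 to 459 CPM in SKO and to 6.26 to 17.7 in WT, while the macrophage sums of the genotypes overlapped. The 6 peritubular myoid markers summed to 35.3 to 65.4 CPM in SKO SPG and to 2.24 to 11.4 in WT SPG. In PreL they summed to 6.22 to 13.6 in SKO and to 7.09 to 8.77 in WT. From SPG to PreL in SKO, 2 of the 3 myoid markers tested fell, Acta2 and Myh11, and 0 rose. The part of these cells in the Adamts5 and Adamts1 differences was not tested.

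**Figure D5:**
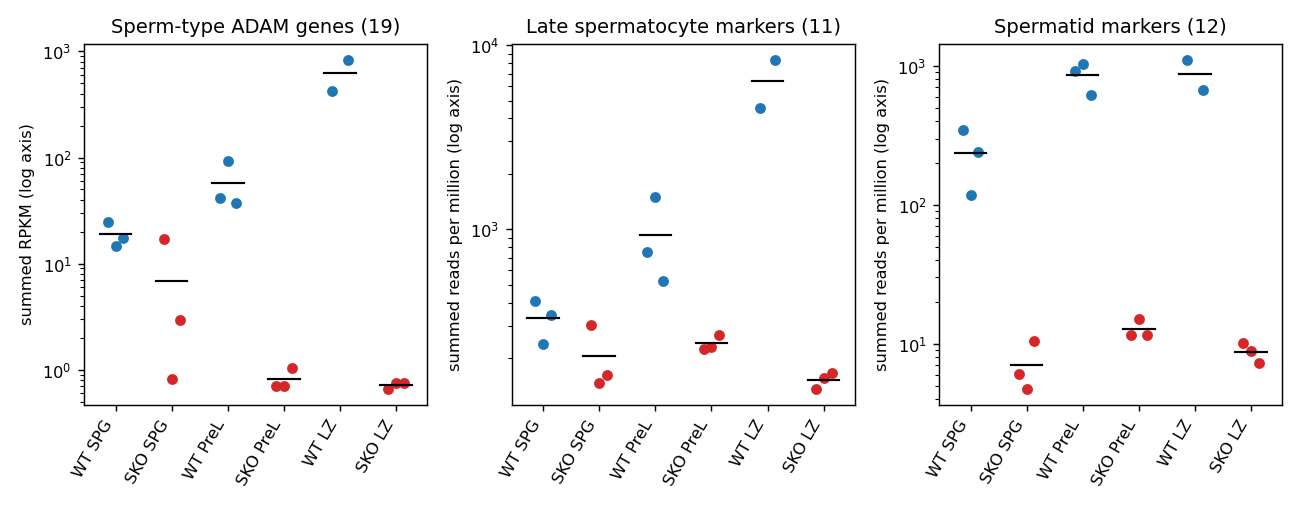
Summed level of the 19 sperm-type ADAM genes (RPKM), of 11 late spermatocyte markers and of 12 spermatid markers (CPM) per library on log axes (points, WT blue and SKO red), with the group mean as a black line. In SKO PreL and SKO LZ the sperm-type sum is at 1.04 RPKM or less, and the spermatid sum is at or under 15.1 CPM in all 9 SKO libraries.

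Whether the genotype difference itself changed from PreL to LZ was tested by an interaction term over all 17 libraries. Of the 21 members tested, 8 sperm-type members had a lower and Adam28 a higher difference in LZ than in PreL at an adjusted p under 0.05, where 23.1% and 15.1% of all genes tested had one. In SKO these 8 had 0 to 11 reads per library in PreL and 0 to 5 in LZ, so their term rests mainly on the WT libraries. As they passed the filter on low values mainly through WT libraries, the count describes them and does not test the family. For Adam2 (-2.54, SE 1.07, adjusted p = 0.0672) and Adam1b (-2.92, SE 1.17, adjusted p = 0.055) the term did not pass. On the recovered reads, edgeR and DESeq2 each called 0 of the 21 members lower and only Adam28 higher. Over all 13530 genes tested, they called 2133 and 2724 lower. From SPG to PreL in SKO, limma, edgeR and DESeq2 each called 0 of the 14 members tested, with 2, 4 and 3 at an unadjusted p under 0.05, where 0.955% and 1.63% of all genes tested were called lower and higher.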

How the data were processed

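RNA of sorted SPG, PreL and LZ from WT and Nat10-SKO mice was measured in 17 Smart-seq2 libraries without molecular identifiers. The authors counted reads per gene with HTSeq (0.11.2 in the submitters' processing notes, which also name TopHat2 2.1.1, Cufflinks 2.2.1 and DESeq2) on mm10 and deposited signal values, each library's counts multiplied by 1 factor set from the ERCC spike-in. Dividing by that factor gave whole reads for 100% of the values (tolerance 0.02). Columns of other samples numbered 0.

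Values were rescaled by median-of-ratios size factors and tested with limma 3.58.1 (mean-variance trend, R 4.3.3) as log2(value + 10), over genes whose mean reached 10 recovered reads. The interaction was called at an adjusted p under 0.05 alone. Alternatives were the deposited values without rescaling, TMM, a pseudocount of 1 or 50, the filter dropped or raised to 50 reads, edgeR 4.0.16 and DESeq2 1.42.0 on recovered reads, the replicate number as a block, no fold threshold, each library left out in turn, and the median transcript length for levels. Against a group with 0 reads a fold was bounded by 3 reads over the group, and with 1 to 3 reads the pooled ratio has an exact 95% interval, both covering counting error only.

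Members and lists were chosen with earlier results of these data known. All members with at least 10 reads in a library were named. Of the up to 3 called genes with the largest fold change in each other list and comparison, only some were named. Tspan15 and Jag1 in WT were singled out after their values were seen. Gene models and coding sequences were from GENCODE on GRCm38, promoters from RefSeq on GRCm38.p6. The fits were tested on simulated data.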

Additional observations from a re-analysis of the deposited data

Results flagged for a closer look

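For 9 members the genotype difference in LZ differed from that in PreL by the interaction term of limma over all 17 libraries. It was more negative in LZ for Adam30 (log2 difference of differences -4.22, adjusted p = 0.00452), Adam32 (-4.06, adjusted p = 0.0086), Adam18 (-3.81, adjusted p = 0.00593), Adam5 (-3.45, adjusted p = 0.0476), Adam3 (-3.20, adjusted p = 0.0324), Adam29 (-2.76, adjusted p = 0.0379), Adam24 (-2.60, adjusted p = 0.0384) and Adam1a (-2.44, adjusted p = 0.035). It was more positive in LZ for Adam28 (4.04, adjusted p = 4.02e-06). The median of all genes tested in this contrast was -0.31. Neither edgeR nor DESeq2 on the recovered reads called any of the 8 negative ones, and both called Adam28. In each tool 2 of all 21 members tested had an unadjusted p under 0.05, and Adam28 was 1 of these 2. In SKO the 8 had 0 to 11 reads per library in PreL and 0 to 5 in LZ, so their term rests mainly on the WT libraries. With a pseudocount of 1 in place of 10, 1 member was called lower. With groups of 2 or 3 libraries, single libraries could not be tested as outliers.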

How the results depend on the processing

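Of 51 called results for single members, 27 kept their call in every alternative in which they were tested and 24 lost it in at least 1; over all 825 such repeats, 675 kept the call. The counts that moved by more than 1.5 times are given by setting, and the cause was not tested unless the setting removes genes or libraries. On the deposited values without rescaling, SPG lower went from 1 to 3, PreL higher from 1 to 4, LZ higher from 2 to 1, WT LZ against PreL from 1 to 0 lower and from 11 to 19 higher, SKO PreL against SPG from 0 to 2 higher and SKO LZ against PreL from 1 to 3 higher. This scaling shifted the median of all genes by 1.86 in WT LZ against PreL. It reversed the log2 differences there of Adam9 (1.37), Adam10 (0.79), Adam15 (1.32), Adam17 (1.41) and Adam28 (0.48). TMM gave 1 lower in SKO LZ against PreL instead of 0. A pseudocount of 1 gave 0 higher in PreL, 1 higher in LZ and 1 lower in the interaction instead of 8, and one of 50 gave 0 higher in PreL and 2 higher in WT PreL against SPG. No filter gave 1 higher in LZ, 0 higher in WT PreL against SPG and 1 lower in SKO LZ against PreL. A mean of at least 50 reads, which tests fewer members, gave 4 lower and 0 higher in PreL, 7 lower and 1 higher in LZ, 7 higher in WT LZ against PreL and 5 lower in the interaction. With edgeR there were 0 lower in SPG, 0 higher in PreL, 1 higher in LZ, 2 higher in WT PreL against SPG and 0 lower in the interaction; with DESeq2, 0 higher in PreL, 1 higher in LZ, 5 higher in WT PreL against SPG, 2 lower in WT LZ against PreL and 0 lower in the interaction. In SPG, DESeq2 also called 1 lower, but this was Adam1a and not Adam2. Without the fold threshold, 1 was higher in SPG, 2 higher in PreL and 2 lower in SKO LZ against PreL.

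Leaving out 1 library at a time gave 0 to 4 lower in SPG, 6 to 8 lower and 0 to 1 higher in PreL, and 10 to 16 lower and 1 to 2 higher in LZ. It gave 0 to 2 higher in WT PreL against SPG and 0 to 2 lower and 4 to 10 higher in WT LZ against PreL. In SKO it gave 0 to 1 lower in PreL against SPG (Adam3, without SKO SPG replicate 3) and 0 to 1 lower in LZ against PreL. The interaction had 2 to 10 lower, with 2 without WT LZ replicate 3.

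The replicate numbers did not pair the libraries: the correlations of same-numbered deviations ran from -0.19 to 0.13. With the replicate block, 0 were lower in SPG, 0 higher in PreL, 4 higher in WT PreL against SPG and 4 lower in the interaction; the block could not be fitted for WT LZ against PreL.

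With the median transcript length, the summed sperm-type level was 49.8 RPKM in WT SPG (19.1 with the longest), 1567 in WT LZ (622) and 1.30 in SKO LZ (0.723), and that of the others was 257 in WT SPG (101), 109 in WT LZ (45.9) and 116 in SKO LZ (54.9). The SKO LZ libraries were the shallowest, which widens the intervals of members with few reads there.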
